A study of Mus musculus with 3 samples.

Results

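The 10 genes described here are targets of Wnt signalling, with the Lgr receptors and the feedback inhibitors of the pathway: Lgr4, Lgr5, Axin2, Nkd1, Rnf43, Znrf3, Notum, Ascl2, Sox9 and Tnfrsf19. They were taken by symbol from a table of 56691 genes, where each symbol stands on 1 line. The table comes from RNA sequencing of mouse stomach corpus organoids, which are epithelial structures grown from tissue cells in Matrigel, with 1 library in each of 3 groups. For the library labelled Gpx4 KO-Mist1+ the donor genotype combines a floxed Gpx4 gene with a Cre recombinase at the Mist1 locus and a red fluorescent reporter behind a stop cassette (Gpx4F/F;Mist1Cre/ERT2;RFPLSL). The Mist1+ and the Mist1- libraries have a wild-type label, and Mist1Cre/ERT2;RFPLSL is the genotype that the design gives beside the floxed one. Mice were about 8 weeks old, all 3 cultures were kept in proliferating medium, and all 3 titles end in P5. Mist1, the product of Bhlha15, is a transcription factor of secretory cells, and the Cre therefore follows its activity. The number of mice behind a culture, the inducing agent and the composition of the medium are not given in the sources used here.

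Wnt ligands bind Frizzled receptors and Lrp co-receptors and thereby keep beta-catenin from being degraded, so that it can activate target genes with the TCF and LEF factors. Rnf43 and Znrf3 are membrane ubiquitin ligases that remove Frizzled receptors, and R-spondins bound to Lgr4 or Lgr5 hold these ligases back. Axin2, Nkd1 and Notum are target genes whose products dampen the pathway, which makes them readouts and brakes at once. In the stomach Lgr5 marks stem cells of the antral gland base and a set of chief cells in the corpus.

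RefSeq promoter windows on GRCm38.p6 were matched for 6 of the 10 genes, 8 windows in all, since Rnf43 and Tnfrsf19 have several starts; Lgr5, Znrf3, Sox9 and Notum were not matched. Shown are the 250 bases before the start for Axin2, Nkd1, Ascl2 and Tnfrsf19, the matched genes whose scaled counts were more than 2-fold higher in the library labelled Gpx4 KO-Mist1+ than in Mist1+. They lie at chr11:108920099-108920348 (plus strand) for Axin2, chr8:88527383-88527632 (plus) for Nkd1, chr7:142969265-142969514 (minus) for Ascl2, and chr14:61046856-61047105 and chr14:61037988-61038237 (both minus) for the upstream and the downstream start of Tnfrsf19. Each is written 5′ to 3′ on the strand of its gene. The Nkd1 window lies inside the gene, which begins at 88521354 in GENCODE M21, so it precedes a later RefSeq start. Capitals mark CTTTGA or its reverse complement TCAAAG, the core that TCF and LEF factors recognise, and ACGTG or its reverse complement CACGT, the core of the hypoxia response element.
Axin2: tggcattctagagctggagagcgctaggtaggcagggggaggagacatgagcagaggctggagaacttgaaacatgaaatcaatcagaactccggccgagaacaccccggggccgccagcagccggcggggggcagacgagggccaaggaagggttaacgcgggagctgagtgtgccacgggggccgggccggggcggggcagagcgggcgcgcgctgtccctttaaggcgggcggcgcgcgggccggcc
Nkd1: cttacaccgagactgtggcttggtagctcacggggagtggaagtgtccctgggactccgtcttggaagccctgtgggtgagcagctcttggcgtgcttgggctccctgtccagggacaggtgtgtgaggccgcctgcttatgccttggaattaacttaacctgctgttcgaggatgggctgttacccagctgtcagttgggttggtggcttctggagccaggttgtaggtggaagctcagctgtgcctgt
Ascl2: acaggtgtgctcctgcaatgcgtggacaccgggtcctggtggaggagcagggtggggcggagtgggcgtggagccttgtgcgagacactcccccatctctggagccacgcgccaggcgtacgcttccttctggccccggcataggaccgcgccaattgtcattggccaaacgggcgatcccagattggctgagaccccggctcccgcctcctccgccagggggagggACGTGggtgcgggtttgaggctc
Tnfrsf19 upstream start: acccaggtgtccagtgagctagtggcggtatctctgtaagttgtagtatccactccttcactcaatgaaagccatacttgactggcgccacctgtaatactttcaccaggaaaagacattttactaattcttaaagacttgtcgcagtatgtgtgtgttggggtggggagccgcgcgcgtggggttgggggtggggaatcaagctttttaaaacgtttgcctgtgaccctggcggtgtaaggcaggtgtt
Tnfrsf19 downstream start: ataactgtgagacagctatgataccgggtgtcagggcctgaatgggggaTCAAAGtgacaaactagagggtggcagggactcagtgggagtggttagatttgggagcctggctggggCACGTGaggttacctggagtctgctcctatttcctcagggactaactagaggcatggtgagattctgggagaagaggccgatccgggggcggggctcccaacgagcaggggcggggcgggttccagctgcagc
The TCF/LEF core was found once among these windows, 201 bases before the downstream start of Tnfrsf19. The hypoxia core stood 23 bases before the start of Ascl2, and as the palindrome CACGTG, read on both strands, from 133 bases before the downstream start of Tnfrsf19. Of 32851 mouse promoter windows of 250 bases, 13.8% hold the TCF/LEF core and 16.6% the hypoxia core on either strand. The windows of Lgr4 and Rnf43, like those of Axin2 and Nkd1, hold neither. A match is a description of letters and not a binding site, and its lack covers this window only.

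The libraries held 16396693 counts for the one labelled Gpx4 KO-Mist1+, 16187378 for Mist1+ and 14943918 for Mist1-. Gpx4, the gene named in the label, had 2569, 1998 and 4399 counts in that order, and was 1.27-fold (1.2 to 1.35) higher in the labelled knockout than in Mist1+. Exons that a deletion leaves in place still give reads, so this value does not check the deleted part, and the name of the library is used here as a label only. Bhlha15 was at 6.46, 10.2 and 5.4 FPKM. Of 19 gastric epithelial markers 17 reached an FPKM of 1 in every library. The parietal pump subunit Atp4b had 0 counts, while the other subunit, Atp4a, was at 1.35, 1.69 and 1.03 FPKM in the same order. Muc5ac, a mucin of pit cells, stayed below 1. Further pit cell genes were highest in Mist1-: Tff1 was at 87.7, 90.6 and 657 FPKM, Gkn1 at 1.37, 2.22 and 22.2, and Gkn2 at 1.16, 5.02 and 33.5. With 1 library per group there is no replicate check and no test between groups: every difference describes these 3 libraries, and fewer cells of a type cannot be told apart from less RNA per cell. Intervals are 95% intervals for counting error only.

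Relative to Mist1+, the library labelled Gpx4 KO-Mist1+ had higher levels of Lgr5, Nkd1, Ascl2 and Tnfrsf19, and of Axin2 just short of the threshold, while Lgr4 was lower and Sox9 and Znrf3 lay close to the Mist1+ level. The threshold is a log2 ratio of 1, that is 2-fold, on FPKM with 1 added to each value, for genes that reach an FPKM of 1 in some library. All 10 genes met that filter, Nkd1 only through the labelled knockout. Of the 10 genes 4 lay past 2-fold upward and 0 downward, where 7.55% of the 13351 tested genes lay past 2-fold, 4.81% higher and 2.74% lower. The median log2 ratio of the 10 was 0.74, and that of all tested genes was -0.09. On scaled counts without an added value 5 of the 10 were at least 2-fold higher, Axin2 being the fifth. Of the 13351 tested genes 1085 were at least 2-fold higher on FPKM without an added value.

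The receptors went different ways. Lgr5 (ENSMUSG00000020140; GRCm38 chromosome 10, 115450311 to 115587780, minus strand) had 6228 counts in the library labelled Gpx4 KO-Mist1+, 1814 in Mist1+ and 981 in Mist1-. Its FPKM was 37 (36.1 to 37.9), 10.9 (10.4 to 11.4) and 6.4 (6 to 6.81), so the labelled knockout stood apart above both wild-type libraries. It was 3.39-fold (3.22 to 3.57) higher in the labelled knockout than in Mist1+, and only 1.51% of tested genes had a higher log2 ratio there. Lgr4 (ENSMUSG00000050199; chromosome 2, 109917647 to 110014257, plus strand), the more widely expressed receptor of the pair, had 3737, 5264 and 2435 counts in the same order. Its FPKM was 38.7 (37.5 to 40), 55.3 (53.8 to 56.8) and 27.7 (26.6 to 28.8). Lgr4 was thus highest in Mist1+, and 1.43-fold (1.37 to 1.49) lower in the labelled knockout than in Mist1+.

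Within a library the balance of the receptors does not depend on how libraries are scaled. Lgr5 was at 0.955 (0.917 to 0.995) of the Lgr4 FPKM in the library labelled Gpx4 KO-Mist1+, 0.198 (0.187 to 0.208) in Mist1+ and 0.231 (0.214 to 0.249) in Mist1-. The ratio was 4.84-fold (4.52 to 5.17) higher in the labelled knockout than in Mist1+. In both wild-type libraries Lgr4 exceeded Lgr5 by 5.06-fold (4.8 to 5.34) in Mist1+ and 4.33-fold (4.02 to 4.67) in Mist1-, whereas their levels nearly met in the labelled knockout.

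**Figure D1:**
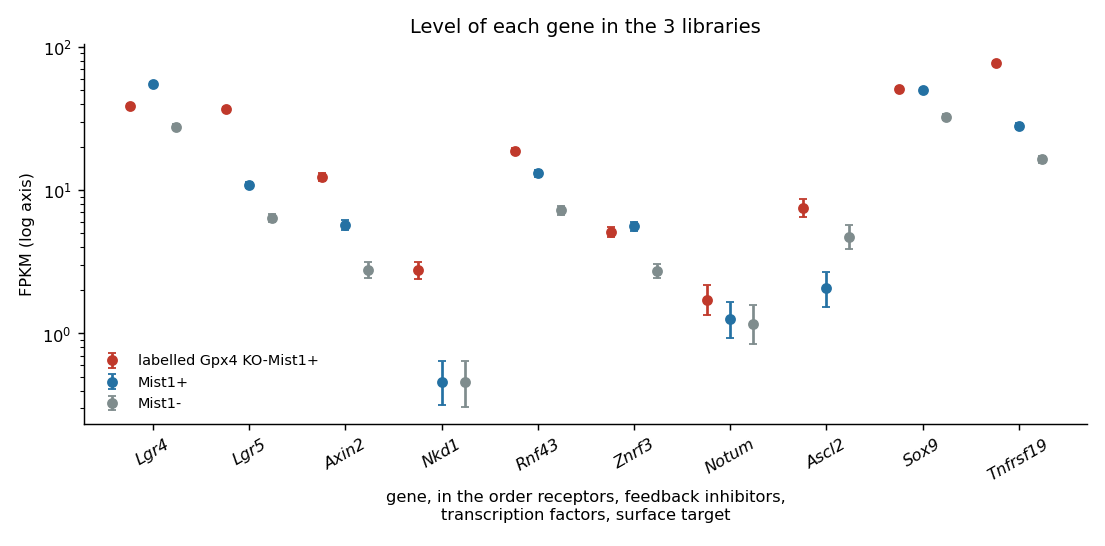
FPKM of the 10 genes on a log axis, with 1 point per library (red, library labelled Gpx4 KO-Mist1+; blue, Mist1+; grey, Mist1-) and bars for the 95% counting interval. In the labelled knockout Lgr5 and Tnfrsf19 reach 37 and 77.3 FPKM, whereas Lgr4 is highest in Mist1+ at 55.3.

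Among the feedback inhibitors, the intracellular ones separated the labelled knockout more than the membrane ligases did. Axin2 (ENSMUSG00000000142; chromosome 11, 108920349 to 108950783, plus strand), the scaffold of the beta-catenin destruction complex and a common readout of the pathway, had 1111 counts in the library labelled Gpx4 KO-Mist1+, 509 in Mist1+ and 229 in Mist1-. Its FPKM was 12.3 (11.6 to 13.1), 5.71 (5.23 to 6.23) and 2.78 (2.43 to 3.17), an order in which no interval overlaps the next. The fold of the labelled knockout over Mist1+ was 2.15 (1.94 to 2.4), while the log2 ratio with 1 added was 0.99, so that Axin2 was not counted as past 2-fold. Nkd1 (ENSMUSG00000031661; chromosome 8, 88521354 to 88594884, plus strand), which binds Dishevelled, had 207, 34 and 31 counts. At 2.77 (2.41 to 3.17), 0.46 (0.319 to 0.644) and 0.46 (0.309 to 0.646) FPKM it was low throughout and the same in both wild-type libraries. It was 6.01-fold (4.17 to 8.91) higher in the labelled knockout than in Mist1+, the widest interval of the genes past 2-fold. Nkd1 was at 0.225 of the Axin2 FPKM in the labelled knockout, 0.0807 in Mist1+ and 0.164 in Mist1-, and this ratio was 2.79-fold (1.9 to 4.2) higher in the labelled knockout than in Mist1+.

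Rnf43 (ENSMUSG00000034177; chromosome 11, 87662722 to 87735539, plus strand) had 2019 counts in the library labelled Gpx4 KO-Mist1+, 1388 in Mist1+ and 711 in Mist1-, or 18.8 (18 to 19.6), 13.1 (12.4 to 13.8) and 7.25 (6.73 to 7.81) FPKM. The labelled knockout was 1.44-fold (1.34 to 1.54) above Mist1+, short of 2-fold. Znrf3 (ENSMUSG00000041961; chromosome 11, 5276324 to 5444847, minus strand), its homologue, had 663, 715 and 323 counts, or 5.12 (4.74 to 5.53), 5.6 (5.19 to 6.02) and 2.74 (2.45 to 3.05) FPKM. The fold of Znrf3 between the labelled knockout and Mist1+ was 0.915, with an interval of 0.822 to 1.02 that includes no difference. Rnf43 exceeded Znrf3 in all 3 libraries, by 3.67-fold (3.36 to 4.01) in the labelled knockout, 2.34-fold (2.13 to 2.56) in Mist1+ and 2.65-fold (2.32 to 3.03) in Mist1-, and the ratio was 1.57-fold (1.38 to 1.78) higher in the labelled knockout than in Mist1+. Notum (ENSMUSG00000042988; chromosome 11, 120653788 to 120661175, minus strand), a secreted enzyme that removes the lipid from Wnt ligands, had 68, 49 and 42 counts. Its FPKM of 1.72 (1.34 to 2.18), 1.26 (0.93 to 1.66) and 1.17 (0.841 to 1.58) have overlapping intervals, and at 1.37-fold (0.935 to 2.02) a difference between the labelled knockout and Mist1+ was not detectable at this depth.

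The transcription factors differed from each other. Ascl2 (ENSMUSG00000009248; chromosome 7, 142966829 to 142969264, minus strand), a stem cell factor of the intestine, had 200 counts in the library labelled Gpx4 KO-Mist1+, 54 in Mist1+ and 115 in Mist1-. Its FPKM was 7.52 (6.51 to 8.63), 2.06 (1.54 to 2.68) and 4.74 (3.91 to 5.69), and Ascl2 was the gene of the 10 that Mist1+ held clearly below Mist1-. The labelled knockout was 3.66-fold (2.7 to 5.03) above Mist1+ but 1.59-fold (1.25 to 2.01) above Mist1-. Sox9 (ENSMUSG00000000567; chromosome 11, 112782224 to 112787760, plus strand), a progenitor factor of many epithelia, had 3442, 3322 and 1999 counts, or 50.8 (49.1 to 52.5), 49.6 (48 to 51.3) and 32.4 (30.9 to 33.8) FPKM. Its fold between the labelled knockout and Mist1+ was 1.02 (0.975 to 1.07), and the log2 ratio of 0.03 was -0.00 when FPKM were rescaled to a common sum. Within a library Ascl2 was at 0.148 (0.128 to 0.171) of the Sox9 FPKM in the labelled knockout and 0.0414 (0.031 to 0.0542) in Mist1+. In Mist1- it was at 0.147 (0.12 to 0.177), so Mist1+ had the lowest ratio. Log2 ratios to Mist1- moved with transcript length, as described below, and Ascl2 has 1623 exonic bases and Sox9 4135. For the labelled knockout against Mist1- the trend on length was -0.43 at Ascl2 and 0.04 at Sox9. For Mist1+ against Mist1- it was -0.41 and 0.14. The ratios of Ascl2 to Sox9 are not corrected for this trend, which limits their comparison with Mist1-.

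Tnfrsf19 (ENSMUSG00000060548; chromosome 14, 60963875 to 61046490, minus strand), the receptor also called Troy and a stem cell marker in the intestine and the stomach, had 6005 counts in the library labelled Gpx4 KO-Mist1+, 2155 in Mist1+ and 1165 in Mist1-. Its FPKM was 77.3 (75.4 to 79.3), 28.1 (26.9 to 29.3) and 16.4 (15.5 to 17.4), the highest level of the 10 genes in the labelled knockout. The fold over Mist1+ was 2.75 (2.62 to 2.89). The ratio of Tnfrsf19 to Lgr5 was 2.09 (2.02 to 2.16) in the labelled knockout, 2.57 (2.42 to 2.74) in Mist1+ and 2.57 (2.36 to 2.8) in Mist1-. It was lower in the labelled knockout, at 0.812-fold (0.755 to 0.873) of the Mist1+ ratio. The gene pairs for such ratios were chosen after the values were seen.

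**Figure D2:**
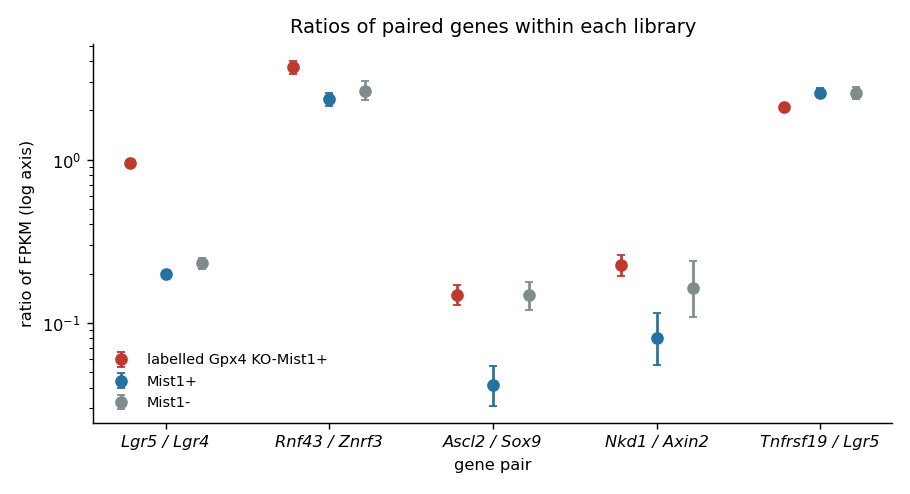
Ratio of the FPKM of gene pairs within each library on a log axis (red, library labelled Gpx4 KO-Mist1+; blue, Mist1+; grey, Mist1-), with 95% counting intervals. The Lgr5 to Lgr4 ratio is 0.955 in the labelled knockout against 0.198 and 0.231 in Mist1+ and Mist1-, and the Ascl2 to Sox9 ratio is lowest in Mist1+ at 0.0414.

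Ranked by FPKM, the 10 genes in the library labelled Gpx4 KO-Mist1+ stood in the order Tnfrsf19, Sox9, Lgr4, Lgr5, Rnf43, Axin2, Ascl2, Znrf3, Nkd1 and Notum, and only the intervals of Lgr4 and Lgr5 overlapped among neighbours. In Mist1+ it was Lgr4, Sox9, Tnfrsf19, Rnf43, Lgr5, Axin2, Znrf3, Ascl2, Notum and Nkd1, with overlap between Axin2 and Znrf3 and between Ascl2 and Notum. In Mist1- it was Sox9, Lgr4, Tnfrsf19, Rnf43, Lgr5, Ascl2, Axin2, Znrf3, Notum and Nkd1, with overlap between Rnf43 and Lgr5 and between Axin2 and Znrf3. The labelled knockout had the highest level for 8 of the 10 genes, Mist1+ for Lgr4 and Znrf3 and Mist1- for 0, whereas among all tested genes the labelled knockout was highest for 30.7%, Mist1+ for 37% and Mist1- for 32.6%. Summed over the 10 genes the FPKM came to 252, 172 and 102 in the labelled knockout, Mist1+ and Mist1-.

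In Mist1+ against Mist1-, 8 of the 10 genes had a log2 ratio above 0, where 7848 of the 13351 tested genes did. Of the 10 genes 0 passed 2-fold in either direction, where 13.6% of tested genes passed it, 7.88% higher and 5.73% lower. The median was 0.71, beside 0.15 for all tested genes. The largest values were 0.97 for Lgr4, 2-fold (1.9 to 2.09) on scaled counts, 0.83 for Axin2, 2.05-fold (1.75 to 2.41), and 0.82 for Znrf3, 2.04-fold (1.79 to 2.34). Lgr5 was 1.71-fold (1.58 to 1.85), Tnfrsf19 1.71-fold (1.59 to 1.84), Rnf43 1.8-fold (1.65 to 1.98) and Sox9 1.53-fold (1.45 to 1.62) higher. Ascl2 was 2.31-fold (1.66 to 3.25) lower, with a log2 ratio of -0.91. Nkd1 and Notum were at 1.01-fold (0.604 to 1.7) and 1.08-fold (0.699 to 1.67), and their sign depended on the processing: both log2 ratios were below 0 with median ratio and TMM scaling, and that of Nkd1 also, at -0.20, with the trend on transcript length removed.

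The ratios between these libraries moved with transcript length. Across the 13351 tested genes log2 ratio and exonic length had a Spearman rho of 0.49 for Mist1+ against Mist1- and -0.02 for the library labelled Gpx4 KO-Mist1+ against Mist1+; it is taken across genes, which are not independent. Of the 10 genes 8 are longer than the median tested gene of 3766 bases, and Notum with 2408 and Ascl2 with 1623 bases are shorter. With the lowess trend on length removed, the log2 ratio of Lgr5, the longest with 10264 bases, was 0.05, against 0.69 with the trend left in. That of Lgr4 was 0.61, of Tnfrsf19 0.51, of Axin2 0.50, of Sox9 0.46, of Rnf43 0.35 and of Znrf3 0.30, and Ascl2 was at -0.50. For the labelled knockout against Mist1+ the same correction moved Lgr5 to 1.73, Ascl2 to 1.56, Tnfrsf19 to 1.55, Nkd1 to 1.49 and Axin2 to 1.10. Scaling moved the Mist1+ to Mist1- comparison as well: the median of all tested genes was 0.40 with FPKM rescaled to a common sum and -0.02 with median ratio scaling. Of all genes past 2-fold, 57.9% were higher in Mist1+ with FPKM as deposited, 86% with the common sum, 34.5% with median ratio and 31.7% with TMM scaling. The count of the 10 genes past 2-fold was then 5 higher with the common sum, where 2117 of the 13351 tested genes were higher. It was 1 lower, Ascl2, with either of the other scalings. Of the 13351 tested genes 1219 were lower with median ratio and 1302 with TMM scaling.

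**Figure D3:**
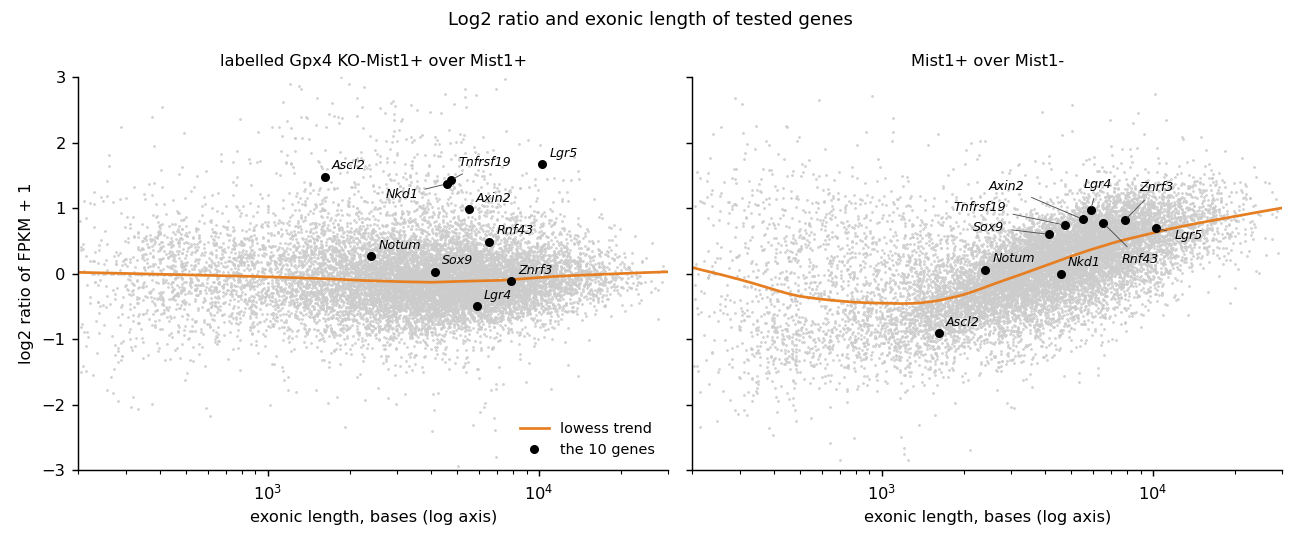
Log2 ratio of FPKM + 1 against exonic length (log axis) for all tested genes (grey), with the lowess trend (orange) and the 10 genes (black), for the labelled Gpx4 KO-Mist1+ library over Mist1+ (left) and Mist1+ over Mist1- (right); 529 and 494 genes lie outside the axes. On the right Lgr5, at 0.69, lies on the trend, while on the left it stands at 1.67 above a flat trend.

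Against Mist1-, all 10 genes had a log2 ratio above 0 in the library labelled Gpx4 KO-Mist1+, where 7256 of the 13351 tested genes did. Of the 10 genes 5 were past 2-fold, where 20.2% of tested genes were, 11.6% higher and 8.56% lower. The fold was 5.79 (5.41 to 6.2) for Lgr5, 4.7 (4.41 to 5.01) for Tnfrsf19, 4.42 (3.83 to 5.12) for Axin2, 6.09 (4.16 to 9.19) for Nkd1 and 2.59 (2.37 to 2.82) for Rnf43. Znrf3 was at 1.87-fold (1.64 to 2.14), Sox9 at 1.57-fold (1.48 to 1.66), Notum at 1.48-fold (0.99 to 2.22) and Lgr4 at 1.4-fold (1.33 to 1.47). The median log2 ratio was 0.99, beside 0.09 for all tested genes. This comparison also moved with length, with a rho of 0.39, and Rnf43 was below 2-fold with the trend removed, at 0.93, while Lgr5, Axin2, Nkd1 and Tnfrsf19 stayed above it. Of all genes past 2-fold, 57.6% were higher with FPKM as deposited, 80.2% with the common sum, 45.8% with median ratio and 43.1% with TMM scaling. The 10 genes had 5 past 2-fold under each of them, all upward. Of the 13351 tested genes 1553, 2339, 1273 and 1210 were past 2-fold upward, in that order. The comparison shares a library with each of the other comparisons, so it is not independent of them.

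**Figure D4:**
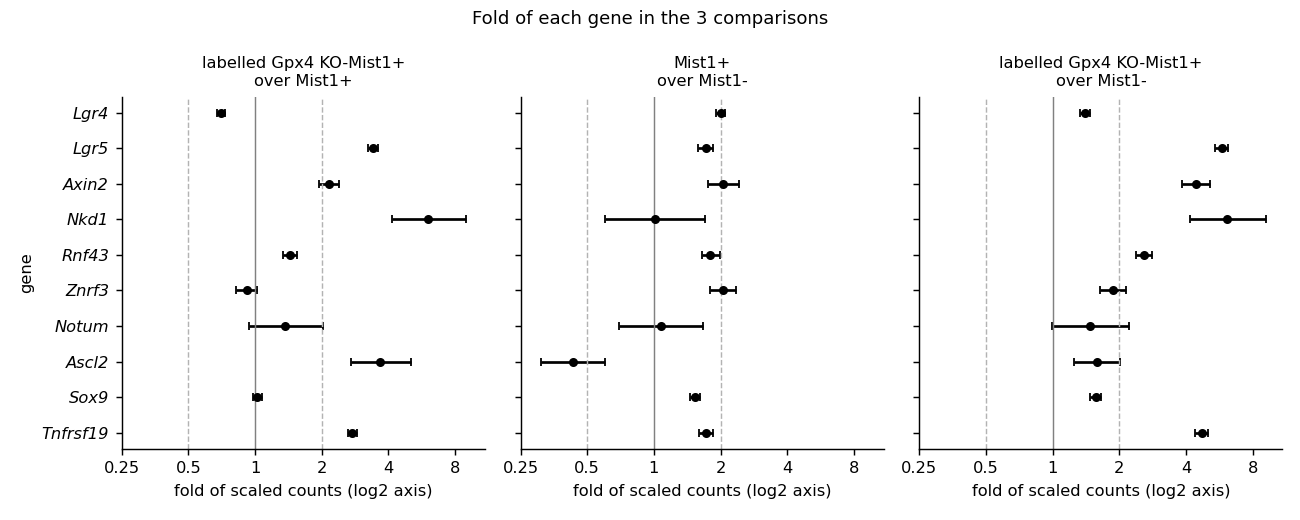
Fold of scaled counts (log2 axis) for the 10 genes in the 3 comparisons, with 95% counting intervals; the solid line is no difference and the dashed lines are 2-fold in either direction. Lgr5, Nkd1, Ascl2, Tnfrsf19 and Axin2 lie above 2-fold on the left, and in the middle panel Ascl2 is the lowest at 0.433.

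The other genes of the pathway did not move together in the library labelled Gpx4 KO-Mist1+ against Mist1+. From a list of 93 genes in 8 roles 51 were tested, of which 6 (11.8%) lay past 2-fold upward and 2 (3.92%) downward, beside 4.81% and 2.74% of all tested genes. The genes of secretion, reception, the destruction complex and the nuclear step, 36 tested, had 0 past 2-fold in either direction, with log2 ratios between -0.82 and 0.93 and a median of 0.02. Beta-catenin itself, Ctnnb1, was at 157 FPKM in the labelled knockout, 188 in Mist1+ and 124 in Mist1-. The kinase gene Csnk1a1 was 1.26-fold (1.22 to 1.3) and the tankyrase gene Tnks2 1.31-fold (1.27 to 1.36) higher in the labelled knockout than in Mist1+. Of the genes for ligand secretion, Porcn was at 1.33-fold (1.16 to 1.52) and Wls at 0.866-fold (0.83 to 0.904). Ligand receptors were mixed: Lrp5 was 1.82-fold (1.73 to 1.92) and Fzd7 2.02-fold (1.83 to 2.25) higher, Lrp6 was at 1-fold (0.949 to 1.06), Ryk was at 0.997-fold (0.92 to 1.08), and Fzd5 was at 0.701-fold (0.652 to 0.754). The log2 ratio of Fzd7 was 0.93, and passed 2-fold when the length trend was removed. In the deposited pathway column, 96 tested genes other than the 10 belong to Wnt signalling, and 4.17% of these were at least 2-fold higher, beside 4.81% of all tested genes.

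Past 2-fold were ligands and further targets. Wnt7b had 273 counts in the labelled knockout, 21 in Mist1+ and 41 in Mist1-, and was 12.8-fold (8.23 to 21.1) higher than in Mist1+. Wnt10a, at 3.63, 0.93 and 2.17 FPKM, was 3.92-fold (2.72 to 5.79) higher, whereas Wnt4 was lower, at 0.41, 2.06 and 4.13 FPKM, though not past 2-fold against Mist1+ with the length trend removed. Wnt5a was at 2.62, 1 and 0.79 FPKM, with a log2 ratio of 0.86 to Mist1+. Of 19 ligand genes 4 were tested, and 8, Wnt3 and Wnt3a among them, had 0 counts in all libraries, which allows up to 0.059, 0.06 and 0.065 FPKM for Wnt3 in the labelled knockout, Mist1+ and Mist1-. The R-spondin genes, whose products act through Lgr4 and Lgr5, had at most 2 counts in a library. The nuclear factor gene Lef1 had 0 counts, and Tcf7, which encodes a related factor, was at 9.58, 6.36 and 5.81 FPKM, while the co-activator gene Pygo2 was at 17.1, 22.9 and 20.9. Among 9 further targets 4 were higher in the labelled knockout than in Mist1+: Cd44, 3.8-fold (3.66 to 3.95), the intestinal stem cell marker Olfm4, 3.25-fold (2.8 to 3.79), the transcription factor Sp5, 2.62-fold (2.34 to 2.94), and cyclin D1, Ccnd1, 2.27-fold (2.18 to 2.36). Smoc2, another stem cell marker, was lower, at 1.64 FPKM against 7.45 in Mist1+, with 1.89 in Mist1-.

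In Mist1+ against Mist1-, 10 of the 51 tested genes of this list (19.6%) lay past 2-fold upward and 1 (1.96%) downward, beside 7.88% and 5.73% of all tested genes. The 10 were Lrp5, Lrp6, Apc, Gsk3b, Amer1, Tnks, Bcl9, Bcl9l, Smoc2 and Slc12a2, and the shortest of them has 6951 exonic bases. With the length trend removed Smoc2 alone of these was past 2-fold, and Olfm4, at 4.73 FPKM in Mist1+ and 11.6 in Mist1-, was lower with and without it. Against Mist1- the labelled knockout had 18 genes of the list (35.3%) higher and 1 (1.96%), Wnt4, lower, beside 11.6% and 8.56% of all tested genes, and with the trend removed 9 higher and 1 lower. The 18 were Wnt5a, Wnt7b, Fzd4, Fzd7, Lrp5, Lrp6, Ror2, Kremen1, Apc, Gsk3b, Amer1, Tnks, Tnks2, Bcl9, Bcl9l, Ccnd1, Cd44 and Slc12a2. Kremen1, a receptor for Dkk proteins, was at 7.81 FPKM in the labelled knockout against 2.57 in Mist1-, and its homologue Kremen2 at 0.92 against 1.64. The deposited pathway column has 96 tested genes beside those described here. In Mist1+ against Mist1- 7.29% of them were at least 2-fold higher, beside 7.88% of all tested genes. In the labelled knockout against Mist1- 19.8% were, beside 11.6%, with the length trend left in.

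**Figure D5:**
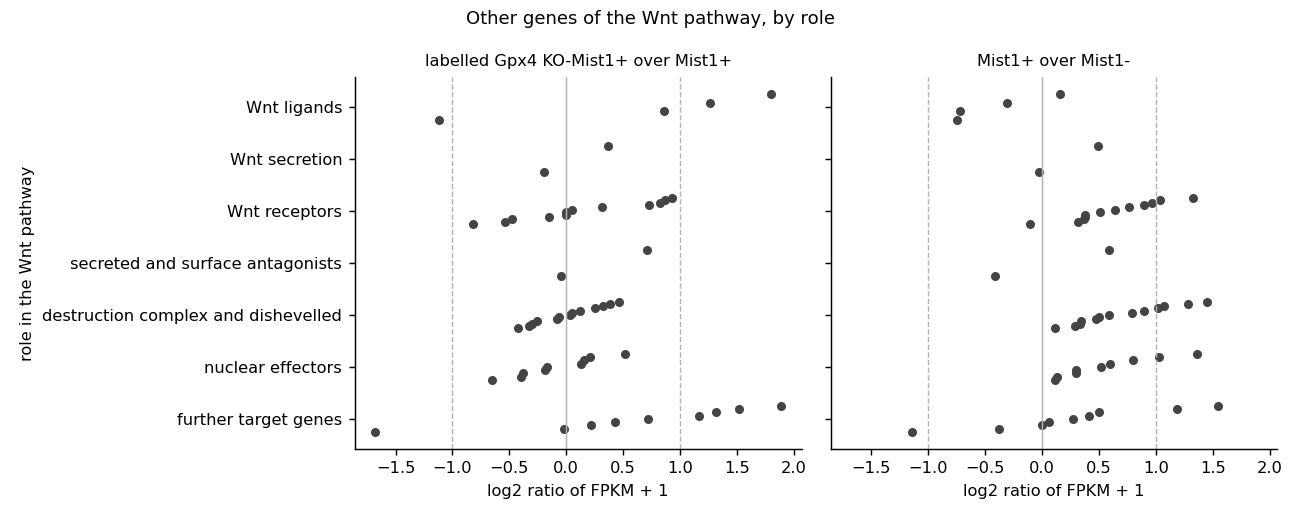
Log2 ratio of FPKM + 1 for the 51 tested genes of the wider Wnt list by role, for the labelled Gpx4 KO-Mist1+ library over Mist1+ (left) and Mist1+ over Mist1- (right); dashed lines are 2-fold. Receptors, destruction complex and nuclear genes lie within 2-fold on the left, between -0.82 and 0.93, and the genes past it are ligands and further targets.

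Other gene groups differed between the libraries too, not all in the order of the 10 genes, and their part in these results was not tested. Of 14 tested genes for glycolysis and the hypoxia response 13 were past 2-fold upward in the library labelled Gpx4 KO-Mist1+ against Mist1+, beside 4.81% of all tested genes, with a summed FPKM of 2609, 669 and 1435 in the labelled knockout, Mist1+ and Mist1-. Of 20 genes of the cell cycle 2 lay past 2-fold downward and 0 upward in this comparison, beside 2.74% and 4.81% of all tested genes, with sums of 655, 1058 and 996. In Mist1+ against Mist1-, 9 of the 14 glycolysis and hypoxia genes lay past 2-fold downward, beside 5.73% of all tested genes. Markers of the intestine, where Lgr5, Ascl2 and Olfm4 mark stem cells, summed to 92.2, 15.4 and 34.9 FPKM. Most of that was villin, Vil1, at 85, 14.2 and 32.8 FPKM, and Lyz1 reached 6.47, 0.78 and 2.01. The intestinal factor gene Cdx1 and the phosphatase gene Alpi had 0 counts in all libraries, Cdx2 had 7, 0 and 0 counts, and Muc2 was at 0.2, 0.11 and 0.04 FPKM. Of the antral markers, Gast had 0 counts and Pdx1 was at 2.66, 1.35 and 2.79 FPKM. Stromal markers summed to 0.2, 0.37 and 0.65 FPKM, with Pdgfra, Pdgfrb, Lum and Des at 0 counts in all libraries, and endothelial markers to 0.21, 0.2 and 0.14. Of 7 immune markers Cd68, which lysosomes of other cells also hold, reached 24.4, 5.06 and 4.37 FPKM, while Cd3e had 0 counts in all libraries and Ptprc had 0, 1 and 1.

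Other genes followed similar patterns over the 3 libraries. Of 8704 genes that reached an FPKM of 5 in some library, 19 lay within 0.25 of Lgr5 at every library on centred log2 values. The nearest were Zc3h12c, the transferrin receptor gene Tfrc, Dusp4, Ppargc1a and Tnfrsf19, with a largest difference of 0.061, 0.103, 0.123, 0.137 and 0.147. Tfrc was at 74.1 FPKM in the labelled knockout, 24.4 in Mist1+ and 15.8 in Mist1-. For Axin2 94 genes lay within that distance, led by Slc25a23, Mir1291, Mbnl2, Camk1d and Peak1, the first of these at 10.1, 4.59 and 2.16 FPKM. With 3 libraries such likeness is a description of 3 values per gene.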

How the data were processed

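RNA from 3 mouse gastric organoid cultures was sequenced, 1 library per group. The submitters' processing notes list cutadapt 1.9.1 (a trimmer), HISAT2 2.2.1 (an aligner), HTSeq 0.6.1 (a counter) and the build GRCm38.p5; the strand setting is not given in the sources used here. Per the file headers the deposited table gives a count and an FPKM per gene and library; the authors' FPKM scale the count by exonic length and by the library's total count. At most 17 counts in a library fell on a gene that overlaps 1 of the 10, which 6 of them have in GENCODE M21. Positions are from M21 on GRCm38. Start and end in the deposited table equal M21 for 2.83% of 52073 shared identifiers, so its coordinates were not used.

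Log2 ratios used FPKM plus a pseudocount of 1, genes that reach an FPKM of 1 in a library, and a 2-fold call; no p-value was computed. Intervals at 95% are exact: Poisson for FPKM, the binomial split of the counts for folds, conditional odds ratios for folds of ratios. They cover counting error only; 3 counts per kilobase equal 0.183, 0.185 and 0.201 FPKM in the library labelled Gpx4 KO-Mist1+, Mist1+ and Mist1-. The length trend was a lowess (fraction 0.3) of log2 ratio on log exonic length. Tools were Python 3.11.15 with scipy 1.17.1, pandas 2.3.3, matplotlib 3.10.9, statsmodels 0.14.6 and numpy 2.4.6; edgeR 4.0.16 and DESeq2 1.42.0 in R 4.3.3 gave only the TMM and median ratio factors. Calls and intervals were tested on simulated data. The 10 genes and all lists were chosen with earlier results of these data known. In each role of the wider list, genes named were the 3 highest by mean FPKM and those past 2-fold in any comparison; for Lgr5 and Axin2 the 5 most alike. Marker genes and genes at or near 0 counts were named after their values were seen. Promoters are from RefSeq on GRCm38.p6.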

Additional observations from a re-analysis of the deposited data

How the results depend on the processing

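No paired analysis was possible because each group has 1 library. Settings tried were a pseudocount of 0.1 or 5, a filter at an FPKM of 5 or none, scaling of FPKM to a common sum, by median ratio and by TMM, removal of the length trend, calls at 1.5-fold and 4-fold, and, added after the values were seen, no pseudocount. Of the 10 genes, 4 were past 2-fold in the library labelled Gpx4 KO-Mist1+ against Mist1+. The count was 2 with a pseudocount of 5, 0 at 4-fold and 3 to 5 under the other alternatives. Of the 13351 tested genes 1008 were past 2-fold there, but 296 with a pseudocount of 5, 2927 at 1.5-fold and 151 at 4-fold. With a pseudocount of 0.1 it was 1800, and with none 1965. With the filter at an FPKM of 5 it was 575 of 8704 genes. In Mist1+ against Mist1- the count of the 10 genes was 0, but 3 with a pseudocount of 0.1 and with none. It was 5 with the common sum, 1 with median ratio and 1 with TMM scaling, and 8 at 1.5-fold. Over the 13351 tested genes it was 1817, but 3115 with a pseudocount of 0.1 and 3306 with none. It was 2461 with the common sum, 1862 with median ratio and 1907 with TMM scaling, and 5167 at 1.5-fold. With a pseudocount of 5, without the length trend and at 4-fold it was 525, 1099 and 119. In the labelled knockout against Mist1- the count of the 10 genes was 5, but 3 with a pseudocount of 5 and 2 at 4-fold. It was 4 without the length trend, 7 at 1.5-fold, and 4 of 8 genes with the filter at an FPKM of 5. Over the 13351 tested genes it was 2696, but 913 with a pseudocount of 5, 1863 without the length trend and 240 at 4-fold. With a pseudocount of 0.1 it was 4097, with none 4266, and at 1.5-fold 6107. With the filter at an FPKM of 5 it was 1916 of 8704 genes. Of the wider list, 8 genes were past 2-fold in the labelled knockout against Mist1+, but 4 with a pseudocount of 5, 5 with the filter at an FPKM of 5, 17 at 1.5-fold and 0 at 4-fold. Under the other alternatives it was 8 to 10. In Mist1+ against Mist1- it was 11, but 2 with a pseudocount of 5, 6 with median ratio and 6 with TMM scaling, 2 without the length trend, 23 at 1.5-fold, 0 at 4-fold and 17 with no pseudocount. Under the remaining alternatives it was 10 to 16. In the labelled knockout against Mist1- it was 19, but 7 with a pseudocount of 5, 10 without the length trend, 0 at 4-fold and 15 to 27 under the rest. A larger pseudocount, a higher fold or a stricter filter lowers such counts by construction. A smaller pseudocount, none, or a lower fold likewise raises them or leaves them unchanged. The cause of the other moves was not tested. Over all genes the counts of 1008, 1817 and 2696 in these comparisons, in the order given, ranged from 151 to 2927, 119 to 5167 and 240 to 6107, the lowest at 4-fold and the highest at 1.5-fold. For this check the counting interval of each fold was placed, on the log2 scale, around the log2 ratio with a pseudocount of 1. Of 264 log2 ratios of the 10 genes under alternatives, 176 stayed within it, 88 moved further, and 0 of those past 2-fold changed sign. The intervals printed above surround folds without an added value, so some of the 88 lie inside those. An example is Nkd1 without a pseudocount, at 2.59 in the labelled knockout against Mist1+. The 176 include the values under the changed filters. A filter leaves the ratio of a gene as it is, so those values could not move. Depth limits Notum, Nkd1 and Ascl2 most, with 31 to 207 counts.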
